A study of Homo sapiens with 2 samples.

Results

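The miR-25 and miR-92 members are 5 mature microRNA names that were looked up by name in 2 small RNA libraries of the FaDu cell line (written FadU in the labels): miR-92a-3p, and both arms of miR-92b and of miR-25. All 5 were found among the 2038 names listed in each library, and all 5 were above 0 in both. FaDu is a human squamous carcinoma line of the hypopharynx. The parental library came from cells kept in RPMI-1640 with 10% FBS. The sphere library came from cells expanded in DMEM-F12 with N2 Plus Supplement, bFGF and EGF at 10 ng/ml each, a serum-free medium meant to enrich cancer stem cells. Both media held penicillin and streptomycin, both cultures are the same line with no gene altered, and medium, serum and growth form differ together between them. The study set out to find miRNAs that distinguish the sphere cells. With 1 library per group there is no replicate, so no value has an error between cultures and no test between conditions was possible.

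A microRNA is cut from a hairpin precursor whose 2 strands, the 5p and 3p arms, can each be loaded into an Argonaute protein, and usually 1 arm predominates. Targets are recognised mainly through the seed, bases 2 to 8 of the mature strand, so microRNAs from different genes with the same seed share many predicted targets. The miR-25/92 seed is carried by products of several genes. miR-92a is part of the MYC-driven miR-17-92 cluster and of its X-linked paralog, and miR-25 is part of the miR-106b-25 cluster, while miR-92b has a gene of its own. Reported targets of the seed include the pro-apoptotic gene BCL2L11, and the clusters are known for promoting proliferation in many tumours.

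The mature sequences, from RefSeq on GRCh38.p14, are printed 5′ to 3′ with bases 2 to 8 in capitals to show which members share a seed. The 3p members come first, then the other miRNAs of that seed, and then the 5p arms, which have other seeds. All 5 members had an entry.
miR-92a-3p: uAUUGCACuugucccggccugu
miR-92b-3p: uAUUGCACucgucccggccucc
miR-25-3p: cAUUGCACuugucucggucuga
miR-32-5p: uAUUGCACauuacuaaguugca
miR-363-3p: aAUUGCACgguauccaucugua
miR-367-3p: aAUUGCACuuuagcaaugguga
miR-25-5p: aGGCGGAGacuugggcaauug
miR-92b-5p: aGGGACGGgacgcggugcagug
miR-92a-1-5p: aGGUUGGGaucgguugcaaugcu
miR-92a-2-5p: gGGUGGGGauuuguugcauuac

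Of 2370 mature miRNAs in the RefSeq table, 6 (0.253%) carry this seed, and all 6 are named in the libraries. The 3p members are alike beyond the seed as well. Counted from the 5′ end, miR-92a-3p and miR-92b-3p are identical at 19 of 22 positions and differ by U10C, G21C and U22C (miR-92a-3p base first). miR-92a-3p and miR-25-3p are identical at 18 positions and differ by U1C, C14U, C18U and U22A. miR-32-5p, miR-363-3p and miR-367-3p match miR-92a-3p at 11, 10 and 12 of 22 positions. How the authors assigned reads that match several of these names is not given in the sources used here. Estimated sphere reads of miR-92a-3p, miR-92b-3p and miR-25-3p hold fractions (16848.78, 929.89 and 2809.53). Some reads thus appear to be divided among names, and a part could be split among the 3p members.

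The hairpins show where the mature 3p arm lies. They are printed 5′ to 3′ with the mature 3p arm in capitals.
MIR92A1: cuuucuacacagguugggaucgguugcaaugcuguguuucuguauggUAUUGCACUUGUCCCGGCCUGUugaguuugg
MIR92A2: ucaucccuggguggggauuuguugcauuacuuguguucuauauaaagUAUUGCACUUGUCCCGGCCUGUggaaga
MIR25: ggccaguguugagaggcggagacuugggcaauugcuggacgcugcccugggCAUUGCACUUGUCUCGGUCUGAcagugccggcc
MIR92B: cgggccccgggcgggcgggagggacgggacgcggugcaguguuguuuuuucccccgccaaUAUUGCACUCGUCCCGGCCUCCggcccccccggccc

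On GRCh38.p14, MIR92A1 lies at chr13:91351314-91351391 on the plus strand, inside the host transcript MIR17HG. It overlaps an exon in 2 of the 3 GENCODE 29 transcripts that span it and is intronic in the other. MIR92A2 lies at chrX:134169538-134169612 on the minus strand, in an exon of the non-coding AC002407.1. Both give the same mature miR-92a-3p, so that name cannot be divided by gene, while their 5p arms differ and can. MIR25 lies at chr7:100093560-100093643 on the minus strand, in an intron of all 8 spanning transcripts of MCM7, which encodes a subunit of the replicative helicase. MIR92B lies at chr1:155195177-155195272 on the plus strand, in an exon of the antisense RNA AC234582.1.

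Levels are given as deposited, in RPKM (reads per kilobase of mature miRNA and per 1000000 reads), and as rescaled RPKM, for which each library was set to sum to 1000000. Summed RPKM was 4.82 times lower in the sphere library. Estimated miRNA reads numbered 4550662 for parental cells and 683674 for spheres, which makes rare miRNAs less certain in spheres. Log2 folds compare spheres with parental cells after adding 0.5 to each rescaled RPKM, so differences of rare miRNAs come out too small. Folds without a log are plain ratios of rescaled RPKM with exact (Clopper-Pearson) 95% intervals. PCR duplicates cannot be recognised here, so such intervals reflect counting error alone. Leaving the deposited scale as it is shifts the log2 folds by a median of -2.27. Names whose rescaled RPKM averaged 10 or more over both libraries are called measured here. This holds for 269 of the 2038 names and for 4 of the 5 members.

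The 3p members were abundant in both libraries and made up a smaller part of the miRNA signal in spheres. Together the 5 members held 6.01% of summed parental RPKM (95% counting interval 5.99% to 6.04%) and 3.02% of summed sphere RPKM (2.98% to 3.06%). miR-92a-3p had the largest part of this in each. The libraries also differed in composition, since miRNAs took an estimated 58.5% of all reads behind the RPKM for parental cells and 12.1% for spheres. miR-1246, which is known to match U2 snRNA, and miR-1290 had log2 folds of 5.59 and 8.79, and both were picked after their values were seen. The part of RNA composition or quality in the members' values was not tested.

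miR-92a-3p, the product of both MIR92A genes, was listed at 1266688 RPKM for parental cells and 136030 RPKM for spheres. As rescaled RPKM this is 47745 and 24692, or 4.77% and 2.47% of the miRNA signal. It stood at rank 4 of 2038 names in parental cells and at rank 6 in spheres. Its level was 1.93-fold lower in spheres (1.904 to 1.964), with a log2 fold of -0.95, just short of 2-fold. About 216883 and 16849 reads lay behind these values, so counting error is small, and culture-to-culture error is unknown.

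miR-25-3p, the predominant arm of the hairpin in MCM7, was listed at 205279 and 22683 RPKM. Its rescaled RPKM was 7738 in parental cells and 4117 in spheres, at ranks 19 and 31. It was 1.88-fold lower in spheres (1.81 to 1.95), with a log2 fold of -0.91. The intervals of miR-25-3p and miR-92a-3p overlap.

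miR-92b-3p, from the gene on chromosome 1, was listed at 120725 and 7508 RPKM. Its rescaled RPKM was 4551 in parental cells and 1363 in spheres, at ranks 26 and 54. It was 3.34-fold lower in spheres (3.13 to 3.57), with a log2 fold of -1.74, on about 20671 and 930 reads. Of the 3p members it had the lowest level in both libraries and the largest deficit, and its interval does not overlap those of miR-92a-3p or miR-25-3p.

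miR-25-5p, the minor arm of MIR25, was listed at 2789 RPKM in parental cells and 63.4 RPKM in spheres. Its rescaled RPKM was 105 and 11.5, at ranks 125 and 261. It was 9.13-fold lower in spheres (4.59 to 21.3), with a log2 fold of -3.14. About 456 parental and 8 sphere reads lay behind this, and the interval is correspondingly wide.

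miR-92b-5p, the minor arm of MIR92B, was the rarest member, at 17.5 and 8.07 RPKM, or 0.660 (parental) and 1.47 (spheres) rescaled RPKM. That is 3 parental reads and 1 sphere read. Both are at or under the 3 reads that a listed 0 would allow, so no fold is given for it.

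**Figure D1:**
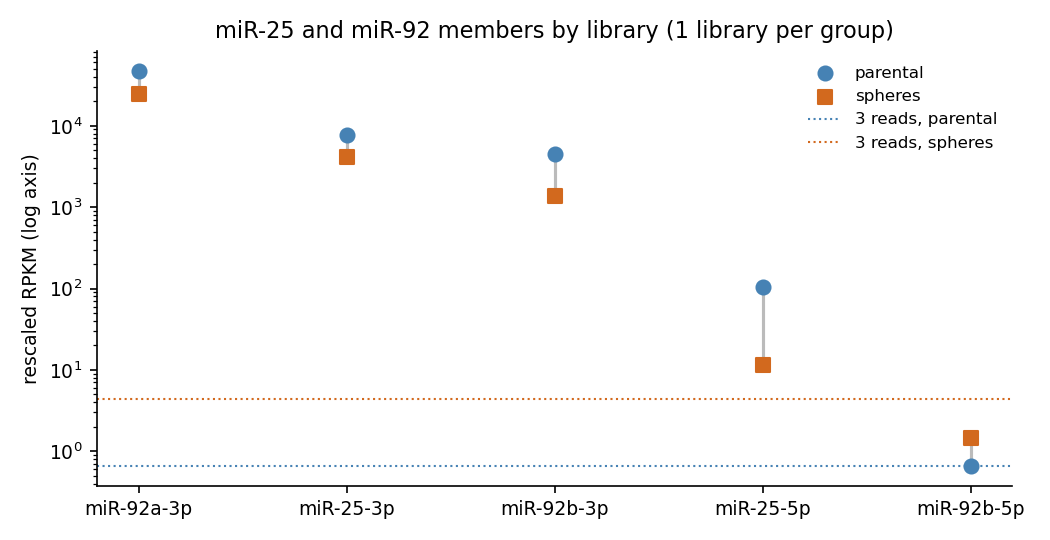
Rescaled RPKM (log axis) of the 5 members in the parental library (circles) and the sphere library (squares), 1 library each, with dotted lines at the level of 3 reads in each library. The 4 members above the lines are lower in spheres, while miR-92b-5p lies at 3 parental reads and 1 sphere read.

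The order of the levels was the same in both libraries, from miR-92a-3p through miR-25-3p, miR-92b-3p and miR-25-5p to miR-92b-5p. Of the 4 measured members, 2 were at least 2-fold lower in spheres, miR-92b-3p and miR-25-5p, and none was higher. Over all 269 measured miRNAs, 51 (19.0%) were at least 2-fold lower and 62 (23.0%) at least 2-fold higher. The names were selected on their RPKM in these same libraries and the fold between them. Nothing is therefore read from their count, median log2 fold or ranks against that background. The median log2 fold of the 4 measured members was -1.35, beside 0.02 over all measured miRNAs. Counted from the lowest log2 fold of the 269, miR-25-5p stood at 2, miR-92b-3p at 19, miR-92a-3p at 53 and miR-25-3p at 56.

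miR-92a-3p and miR-25-3p lie just inside the 2-fold line, and their calls turn on the scaling. Scaling to the upper quartile put them at -1.27 and -1.23, so that 4 of the 4 measured members were at least 2-fold lower, beside 68 of 269 miRNAs. As deposited, the log2 folds were -3.22 for miR-92a-3p, -3.18 for miR-25-3p, -4.01 for miR-92b-3p and -5.45 for miR-25-5p. All 4 then passed 2-fold, but so did 214 of 269 miRNAs (79.6%), while 17 (6.32%) and none of the members were at least 2-fold higher. Back on the rescaled scale, 129 miRNAs averaged 100 or more, and 18 of them (14.0%) were at least 2-fold lower. The 3p members are all in that set, and miR-92b-3p is among the 18.

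**Figure D2:**
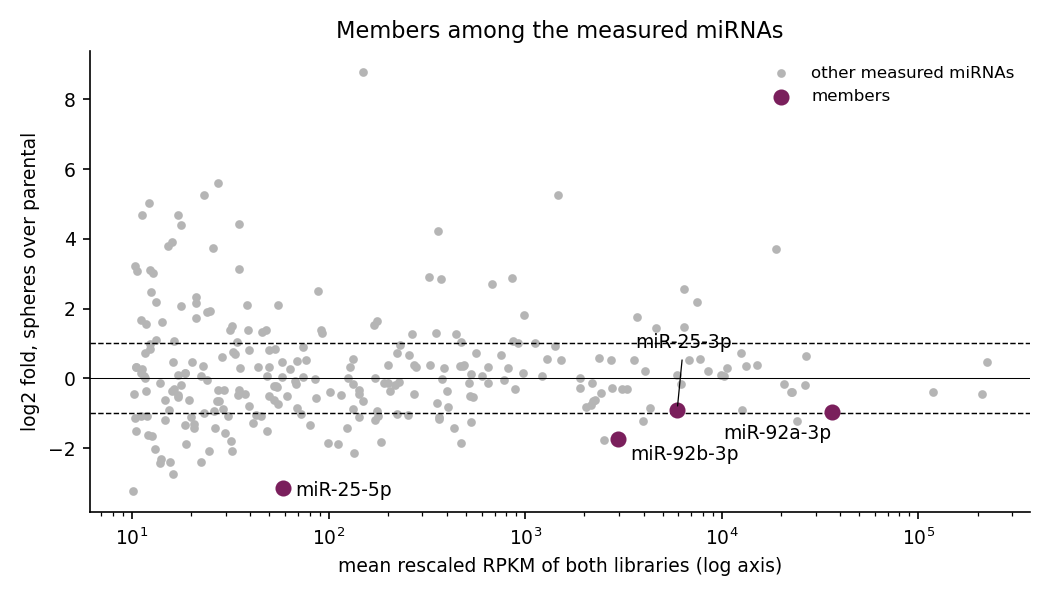
Log2 fold of spheres over parental against the mean rescaled RPKM of both libraries (log axis) for the 269 measured miRNAs, with dashed lines at 2-fold. miR-92a-3p (-0.95) and miR-25-3p (-0.91) lie just above the lower line, and miR-92b-3p (-1.74) and miR-25-5p (-3.14) lie below it.

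Ratios among the members do not depend on how the libraries are scaled to each other. They do depend on how shared reads were divided, and their intervals take the estimated reads as whole and unshared. miR-92a-3p stood to miR-25-3p as 6.17 to 1 in parental cells (6.10 to 6.24) and as 5.997 to 1 in spheres (5.76 to 6.24). These intervals overlap, so the ratio of these names from different clusters differed by less than counting error. The proportion to miR-92b-3p differed between the libraries. miR-92a-3p over miR-92b-3p was 10.5 in parental cells (10.3 to 10.6) and 18.1 in spheres (17.0 to 19.4). miR-25-3p over miR-92b-3p was 1.70 (1.67 to 1.73) and 3.02 (2.80 to 3.26).

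As a share of the summed 3p members, miR-92a-3p therefore made up 79.5% in parental cells (79.4% to 79.7%) and 81.8% in spheres (81.3% to 82.4%). miR-25-3p made up 12.9% (12.76% to 13.02%) and 13.6% (13.2% to 14.1%). miR-92b-3p made up 7.58% (7.48% to 7.68%) and 4.52% (4.24% to 4.81%). In both libraries most of the signal with this seed was thus miR-92a-3p, followed by miR-25-3p, and the part of miR-92b-3p was smaller in spheres.

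**Figure D3:**
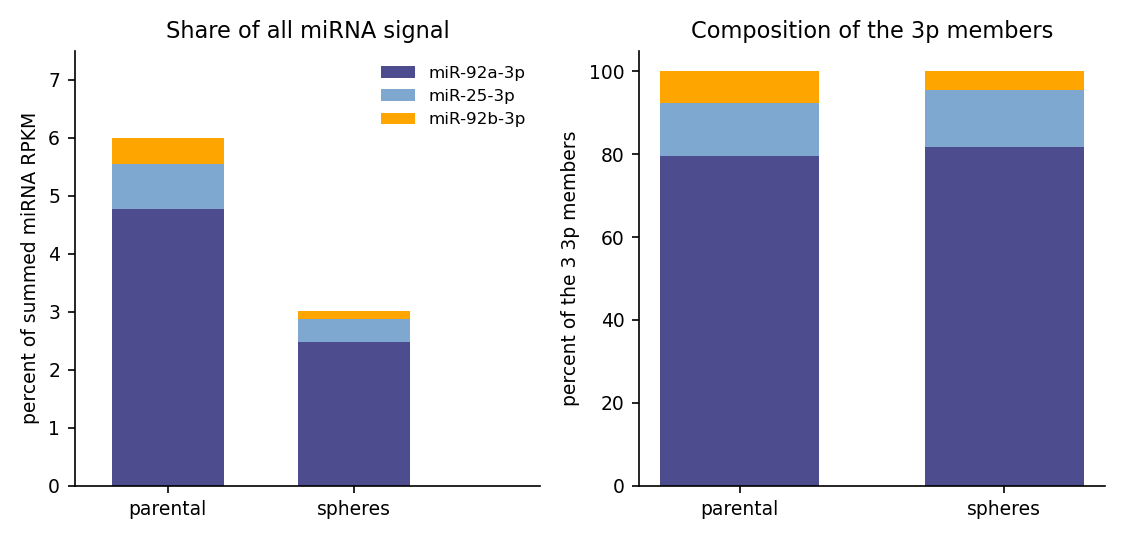
Left, miR-92a-3p, miR-25-3p and miR-92b-3p as percent of summed miRNA RPKM in each library (stacked bars, 6.003% in parental and 3.02% in spheres). Right, the same miRNAs as percent of their own sum, in which miR-92b-3p takes 7.58% in parental cells and 4.52% in spheres.

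The other 3 miRNAs of the seed added little. The rescaled RPKM of miR-32-5p was 3.46 (parental) and 5.88 (spheres), on about 16 and 4 reads. miR-363-3p, which lies beside MIR92A2 on the X chromosome, had 4.40 and 2.93, on 20 and 2 reads. miR-367-3p, a member of the pluripotency-associated miR-302 cluster, was listed at 0 in both libraries, and such a 0 leaves room for 3 reads, equal to 17.5 RPKM (parental) or 24.2 RPKM (spheres). None of the 3 was measured, and adding them changed no share of the 3p members beyond its counting interval.

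The 5p arms of miR-92a are the only names that tell its 2 genes apart. miR-92a-1-5p, from chromosome 13, had 201 parental and 14 sphere reads, or 42.3 and 19.6 rescaled RPKM. miR-92a-2-5p, from the X chromosome, had 1 parental read and was listed at 0 for spheres. Reads that identify the gene thus came almost entirely from MIR92A1, although minor arms need not be kept in the same proportion by both hairpins. miR-92a-1-5p was 2.16-fold lower in spheres (1.26 to 4.02), an interval that includes the 1.93-fold of miR-92a-3p.

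Neighbours in the same clusters were described next, since they can be cut from the same primary transcript. In the miR-17-92 cluster, 7 of the 10 neighbouring arms of miR-92a-1 were measured. miR-17-5p went from 209 to 191 rescaled RPKM (log2 fold -0.13), and miR-20a-5p from 231 to 203 (-0.18). miR-19a-3p went from 115 to 143 (0.32), and miR-19b-3p, which also has a copy in the X-linked cluster, from 247 to 309 (0.32). Both arms of miR-18a lay under 10 rescaled RPKM in spheres and counted as measured only through the parental library. miR-18a-5p had 16.3 and 7.48 rescaled RPKM on about 77 and 5 reads, a ratio of 2.18 (0.894 to 6.90) whose interval includes no difference. miR-18a-3p had 21.4 and 4.91 on about 102 and 3 reads, a ratio of 4.36 (1.45 to 21.5).

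miR-92a-3p was also far more abundant than its neighbours. It stood to miR-17-5p, whose family acts on cell cycle genes, as 229 to 1 in parental cells (215 to 244) and as 129 to 1 in spheres (109 to 154). In the X-linked miR-106a-363 cluster, 3 of 10 neighbouring arms were measured. miR-106a-5p went from 171.8 to 172.2 rescaled RPKM (log2 fold 0.0035) and miR-20b-5p from 73.5 to 75.1 (0.031). The third was miR-19b-3p. Estimated reads of miR-106a-5p (815.92 and 122.86) and miR-20b-5p (349.14 and 53.58) hold fractions. A part of them could thus be shared with names outside this cluster. Of its 10 neighbouring arms, 8 were above 0 in parental cells and 5 in spheres.

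In the miR-106b-25 cluster all 4 neighbouring arms were measured. Each had a negative log2 fold, where the median over all measured miRNAs was 0.02. Of the 4, 1 was at least 2-fold lower, beside 19.0% of all measured miRNAs. miR-93-5p, a miRNA of the miR-17 seed, had 2762 rescaled RPKM in the parental library against 1790, 1.54-fold lower (1.46 to 1.64). miR-106b-3p went from 647 to 444, 1.46-fold lower (1.29 to 1.65), and miR-106b-5p from 200.3 to 181.5, a ratio of 1.10 (0.910 to 1.35) whose interval includes no difference on this scale. miR-93-3p was 2.60-fold lower (1.22 to 6.60), on about 122 and 7 reads. The deficit of miR-25-3p (1.88-fold) was larger than those of miR-93-5p and miR-106b-3p, and the counting intervals do not overlap. Another scaling leaves such differences between miRNAs as they are but moves each interval. Under the upper quartile, the log2 intervals of miR-106b-5p (-0.75 to -0.19), miR-17-5p (-0.72 to -0.19) and miR-106a-5p (-0.60 to -0.043) no longer included 0.

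**Figure D4:**
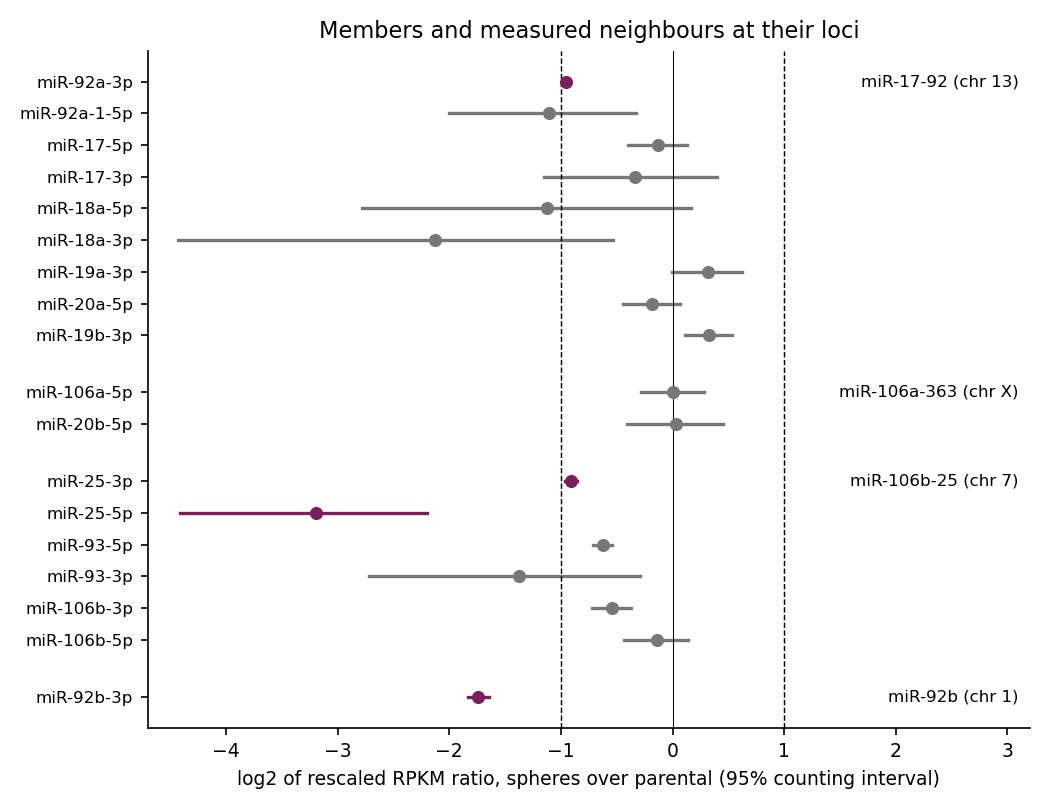
Log2 of the rescaled RPKM ratio of spheres over parental for the members (purple) and the measured names at their loci (grey), with 95% counting intervals and dashed lines at 2-fold. miR-92a-3p, miR-25-3p and miR-92b-3p lie left of miR-17-5p, miR-106a-5p and miR-106b-5p, whose intervals include 0 as drawn but not under the upper quartile scaling. Both arms of miR-18a, miR-92a-1-5p and miR-93-3p, with few sphere reads and wide intervals, lie left of miR-92a-3p and miR-25-3p.

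The arms of miR-25 differed in their change. miR-25-3p stood to miR-25-5p as 73.6 to 1 in parental cells (67.1 to 80.9) and as 358 to 1 in spheres (181 to 829). The ratio was thus 4.86 times larger in spheres, and its intervals do not overlap. For miR-92a-3p over miR-92a-1-5p the ratios were 1128 (982 to 1302) and 1258 (750 to 2302), with overlapping intervals. For miR-92b-3p over miR-92b-5p they were 6890 (2357 to 33414) and 930 (166 to 36768), on 3 and 1 reads of the minor arm, and no difference was detectable at this depth.

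Minor arms had lower log2 folds than major arms at many other hairpins too. Among 50 hairpins with both arms measured, the log2 fold of the minor arm was below that of the major arm at 34 (68.0%), with a median difference of -0.50 and quartiles at -1.14 and 0.35. For miR-25 the difference was -2.23, at rank 3 of 50 from the lowest. Its cluster neighbour miR-93 had -0.71, and miR-106b, whose 3p arm is the major arm, had 0.40. A minor arm rests on fewer reads, and these in turn are fewer in the sphere library. The part of depth in this difference was not tested.

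**Figure D5:**
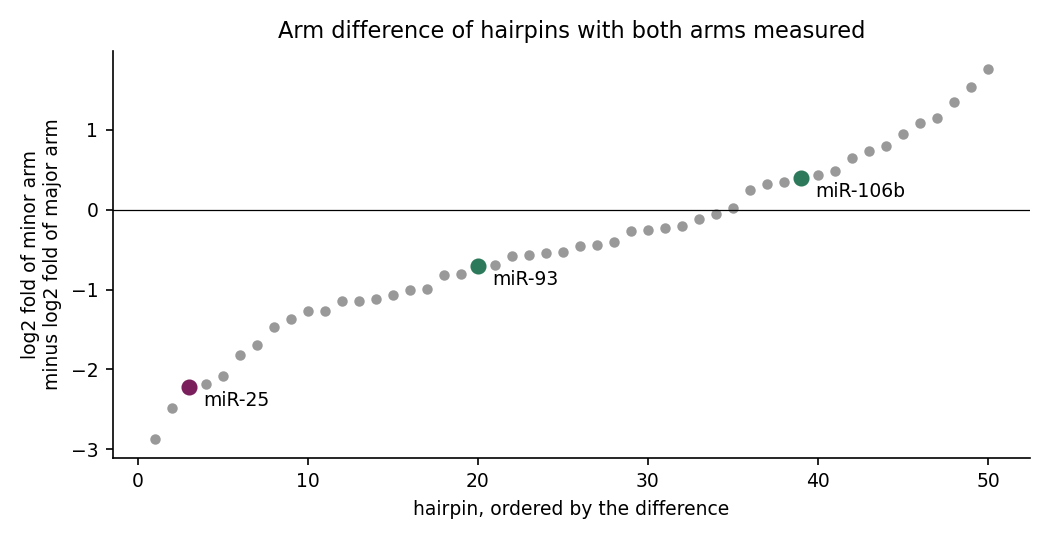
Log2 fold of the minor arm minus that of the major arm for 50 hairpins with both arms measured, ordered from the lowest. miR-25 (-2.23) is at rank 3 from the lowest end, while miR-93 (-0.71) and miR-106b (0.40) lie further along.

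The measured miRNAs closest in level to each 3p member were found by the Euclidean distance of log2(rescaled RPKM + 0.5) over the 2 libraries. With only 2 libraries this describes likeness of level and says nothing of shared control. Closest to miR-92a-3p were let-7c (0.75), let-7i-5p (0.91) and let-7d-5p (0.95). Closest to miR-25-3p were miR-16-5p (0.56), miR-98-5p (0.64) and miR-148a-3p (0.71). Closest to miR-92b-3p was miR-423-5p (0.33), which went from 3912 to 1147 rescaled RPKM, followed by miR-151a-3p (0.78) and miR-93-5p (0.82).

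Because FaDu is a squamous line, 5 epithelial markers were looked up, and all were present in both libraries. All 5 were measured, and together they held 2.89% of miRNA signal in parental cells and 6.85% in spheres. miR-203a (0.270% and 3.51%) and miR-141-3p (0.271% and 1.23%) were at least 2-fold higher in spheres, beside 23.0% of all measured miRNAs. The other 3 lay within 2-fold, with miR-205-5p at 2.19% and 1.95%. Liver miR-122-5p was listed at 0 in both. Of 5 mesenchymal markers only miR-143-3p was measured, and it was 2.56-fold higher in spheres. The mesenchymal list summed to 28.9 (parental) and 76.5 (spheres) rescaled RPKM. Because miR-92a and miR-25 are also abundant in red blood cells, 8 blood markers were set beside the members. They summed to 745 (parental) and 241 (spheres) rescaled RPKM, nearly all from miR-486-5p (741 and 207), the only measured one. miR-486-5p alone sets the lower sum in spheres. Other detected blood markers were higher there on few reads. The defining erythroid miR-451a was at 0.440 and 5.86 rescaled RPKM (2 and 4 reads), miR-142-5p at 3.25 and 12.3 (about 14 and 8 reads), miR-150-5p at 0 and 13.2 (0 and 9 reads) and miR-142-3p at 0 and 2.80 (0 and 2 reads). miR-223-3p had less than 1 parental read and was at 0 in spheres, and both arms of miR-144 were listed at 0 in both libraries. The part of blood RNA in the members' values was not tested.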

How the data were processed

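Per the labels' protocols, 1 µg of total RNA per sample went into size-fractionated TruSeq libraries. The authors deposited RPKM, as the file headers state, 1 value for each of 2038 names, with no counts. The submitters' processing notes name hg19. Aligner, counter, annotation release and handling of multiply matching reads remain not given in the sources used here. The members and lists were chosen with earlier results of these data known.

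Reads were estimated from the commonest low value, 5.84 RPKM (parental) and 8.07 RPKM (spheres), taken as 1 read on 22 nt. All 38 and 30 names at that value with a RefSeq length are 22 nt long. RPKM was divided by this value, adjusted for the RefSeq mature length (1714 names matched, 22 nt otherwise). Of names at about 1 to 20 reads, 54.9% of 366 and 54.3% of 269 came out whole within a relative tolerance of 0.0001, so others hold fractions of reads. This puts 7782765 and 5630047 reads behind the 2 columns, of which miRNAs took 58.5% and 12.1%.

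All 5 members, the listed seed relatives and up to 4 neighbours per cluster (all 4 of miR-106b-25), and the 3 nearest miRNAs of each 3p member were named. miR-18a-3p and miR-18a-5p and the arms of other hairpins were named after their values were seen. The arm comparison over 50 hairpins was also added then. The rescaling, the filter and the 2-fold call were tested on simulated data in which the most abundant names were left unchanged. Read estimates, intervals, arm ratios and the other scalings were not covered by it. Sequences and hairpin positions come from RefSeq (GRCh38.p14), and hosts from GENCODE 29. Python 3.11.15, pandas 2.3.3 and scipy 1.17.1 were used.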

Additional observations from a re-analysis of the deposited data

How the results depend on the processing

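Of the alternatives, RPKM as deposited moved the log2 folds most, to -3.22 (miR-92a-3p), -4.01 (miR-92b-3p), -3.18 (miR-25-3p) and -5.45 (miR-25-5p), by its construction, since summed RPKM differs between the libraries. The upper quartile gave -1.27 (miR-92a-3p), -2.06 (miR-92b-3p) and -1.23 (miR-25-3p). The median of ratios over all 603 names above 0 in both libraries, added after seeing the data, gave -1.16, -1.95 and -1.12 in that order, and the trimmed mean over the same names -1.14, -1.93 and -1.10. Each of these 4 settings made 4 measured members at least 2-fold lower in place of 2. Over all 269 measured miRNAs the count rose from 51 to 214 (as deposited), 68 (upper quartile), 65 (median of ratios) and 63 (trimmed mean). The median of ratios and the trimmed mean over the 603 names leave out names at 0 in spheres. There 1 read equals 1.47 rescaled RPKM, against 0.22 in parental cells, so the rare names kept can have raised ratios. How far this lowered the members' folds was not tested. Computed over the 269 measured miRNAs, the trimmed mean (-0.98 for miR-92a-3p) and the median of ratios left the members' count at 2. So did the sum without the 5 members (-0.997 for miR-92a-3p). Each of these scalings had 52 of 269 miRNAs at least 2-fold lower. A prior of 5 also left 2 members, beside 42 of 269. With no filter it was 2 of 5 members, beside 180 of 972 names. Asking the whole interval to lie beyond 2-fold kept 2 members, and was not counted over all miRNAs. At a mean of at least 100 the members' count was 1 (miR-92b-3p), beside 18 of 129 miRNAs, since miR-25-5p is not in that set. Without the most abundant miRNA the 5 members took 7.95% of parental and 4.07% of sphere signal. No log2 fold of the 4 measured members changed sign under these settings. miR-25-5p and miR-92b-5p are limited by sphere reads. No paired analysis was possible because each group holds 1 library, and for the same reason no library could be left out.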
